A study of Mus musculus with 2 samples.

Results

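The 8 mouse GIMAP genes (Gimap1, Gimap3, Gimap4, Gimap5, Gimap6, Gimap7, Gimap8 and Gimap9) were followed through the cell types of the dorsal meninges, the membranes over the brain, in mice with and without a mild traumatic brain injury. The members were chosen by gene symbol, with earlier results of these data known, and all 8 were present among the 32285 genes of the count matrices. Male C57BL/6J mice, listed as 10 weeks old, received either a closed-skull impact to the head (TBI) or the same handling and anesthesia without the impact (Sham). The meninges were collected 1 week later, live single cells were sorted as DAPI-negative singlets, and about 4000 cells were loaded per library for 3′ single-cell RNA sequencing that counts unique molecular identifiers (UMIs, 1 per captured transcript). Cells of 5 mice were pooled in each library, and each group was 1 library. There was therefore no replicate check on any difference between Sham and TBI, and no test was made. All intervals below are 95% intervals, exact Poisson for levels and exact binomial for shares and ratios, and they cover counting error only.

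GIMAP proteins (GTPases of the immunity-associated protein family) are small GTP-binding proteins that sit on the membranes of intracellular compartments. They are best known from lymphocytes, where loss of some members shortens the life of resting T and B cells. Gimap5 is required for the survival of naive T cells in rodents, Gimap1 for the maintenance of mature T and B cells, and Gimap6 has been tied to autophagy. Gimap3 is the closest relative of Gimap5, Gimap4 has been linked to lymphocyte apoptosis and cytokine release, Gimap7 can stimulate the GTPase activity of its relatives, and Gimap8 is a long member with several GTPase domains.

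The 8 genes lay side by side on chromosome 6 (GRCm38, GENCODE vM21), from position 48647234 to 48770851, a span of 123.6 kb. In order along the chromosome they were Gimap8, Gimap9, Gimap4, Gimap6, Gimap7, Gimap1, Gimap5 and Gimap3, with Gimap6 and Gimap3 on the minus strand and the others on the plus strand. No 98-base window from the last 500 bases of any member was shared with another gene. A further protein-coding gene, Gm28053, overlaps Gimap7, Gimap1 and Gimap5 on the same strand, so counts of these members from the shared stretches are uncertain. The promoters below are shown because these members differed most in endothelial cells: Gimap6 and Gimap1 had 58.2% and 49.3% of their T cell level there, Gimap3 had 0.600% and Gimap7 had no UMI. Gimap8, at 54.1%, has more than 1 listed start and is not shown. Each sequence runs 5′ to 3′ on the strand of the gene, from 250 bases before to 50 bases after the RefSeq transcription start (GRCm38.p6). Capitals mark matches on either strand to an ETS-type motif (GGAAGT or AGGAAG, which overlap where the letters read AGGAAGT) or a RUNX-type motif (TGTGGT or TGCGGT).
Gimap6, chr6:48708195-48708494, minus strand: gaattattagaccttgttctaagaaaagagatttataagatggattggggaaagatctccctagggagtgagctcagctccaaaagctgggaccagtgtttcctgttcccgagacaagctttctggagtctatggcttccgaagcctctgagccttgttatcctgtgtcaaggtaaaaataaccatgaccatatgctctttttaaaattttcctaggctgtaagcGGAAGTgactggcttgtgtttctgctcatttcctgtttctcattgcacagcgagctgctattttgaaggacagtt
Gimap1, chr6:48738797-48739096, plus strand: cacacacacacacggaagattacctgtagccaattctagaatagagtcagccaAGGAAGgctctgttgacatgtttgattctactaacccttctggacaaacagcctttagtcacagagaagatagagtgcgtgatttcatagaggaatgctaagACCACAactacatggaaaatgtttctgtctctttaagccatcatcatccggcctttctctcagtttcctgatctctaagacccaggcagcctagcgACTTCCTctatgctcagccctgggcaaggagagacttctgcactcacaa
Gimap3, chr6:48770802-48771101, minus strand: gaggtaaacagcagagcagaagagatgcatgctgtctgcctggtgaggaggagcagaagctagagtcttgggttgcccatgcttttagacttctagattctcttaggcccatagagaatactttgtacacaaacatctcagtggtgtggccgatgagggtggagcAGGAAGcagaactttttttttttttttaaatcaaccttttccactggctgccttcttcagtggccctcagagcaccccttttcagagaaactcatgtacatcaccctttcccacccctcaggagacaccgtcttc
Gimap7, chr6:48718371-48718670, plus strand: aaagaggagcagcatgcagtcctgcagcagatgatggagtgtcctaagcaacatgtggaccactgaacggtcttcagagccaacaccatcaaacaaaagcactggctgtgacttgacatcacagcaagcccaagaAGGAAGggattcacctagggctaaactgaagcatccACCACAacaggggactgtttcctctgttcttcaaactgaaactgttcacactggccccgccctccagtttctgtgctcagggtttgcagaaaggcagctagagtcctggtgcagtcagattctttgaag
An ETS-type match was found in 8 of the 9 promoters listed for the family, and in 45.8% of 32851 mouse promoters of the same length. A RUNX-type match was found in 4 of the 9, those of Gimap9, Gimap4, Gimap7 and Gimap1, and in 22.4% of all promoters. ETS-type matches were present both in the pair with high and in the pair with little or no endothelial signal.

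The deposited matrices held 2699 Sham and 4349 TBI barcodes, of which 2043 and 3773 passed the filters, with medians of 2764 and 2663 UMIs per cell. Of the barcodes that passed, 14 occurred in both libraries. Clusters were formed without the GIMAP genes and named from marker lists, which gave 19 named classes and left 514 of 5816 cells unnamed. Names carry "-like" because they rest on markers alone. Hemoglobin and macrophage transcripts differed between the libraries inside other classes: in T-like cells the 7 erythroid markers summed to 2369 CPM (UMIs per 1000000 UMIs of the class) in Sham and 237.2 CPM in TBI, and the 14 macrophage markers to 23.9 and 340.2 CPM.

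GIMAP transcripts were mostly lymphoid. Lymphoid classes (T-like, NK-like, ILC2-like, IL-17-type γδ T-like, B-like and B precursor-like) made up 29.2% of all cells and held 82.4% of the GIMAP UMIs, and endothelial-like cells made up 15.3% of cells and held 12.5%. All other named classes together held 4.89%. The split differed by member. Lymphoid classes held 95.6% of the Gimap7 UMIs (797 of 834) and 96.1% of the Gimap3 UMIs (2073 of 2158), but 72.0% of those of Gimap6 and 76.1% of those of Gimap8, for which endothelial-like cells held 21.2% and 20.8%.

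**Figure D1:**
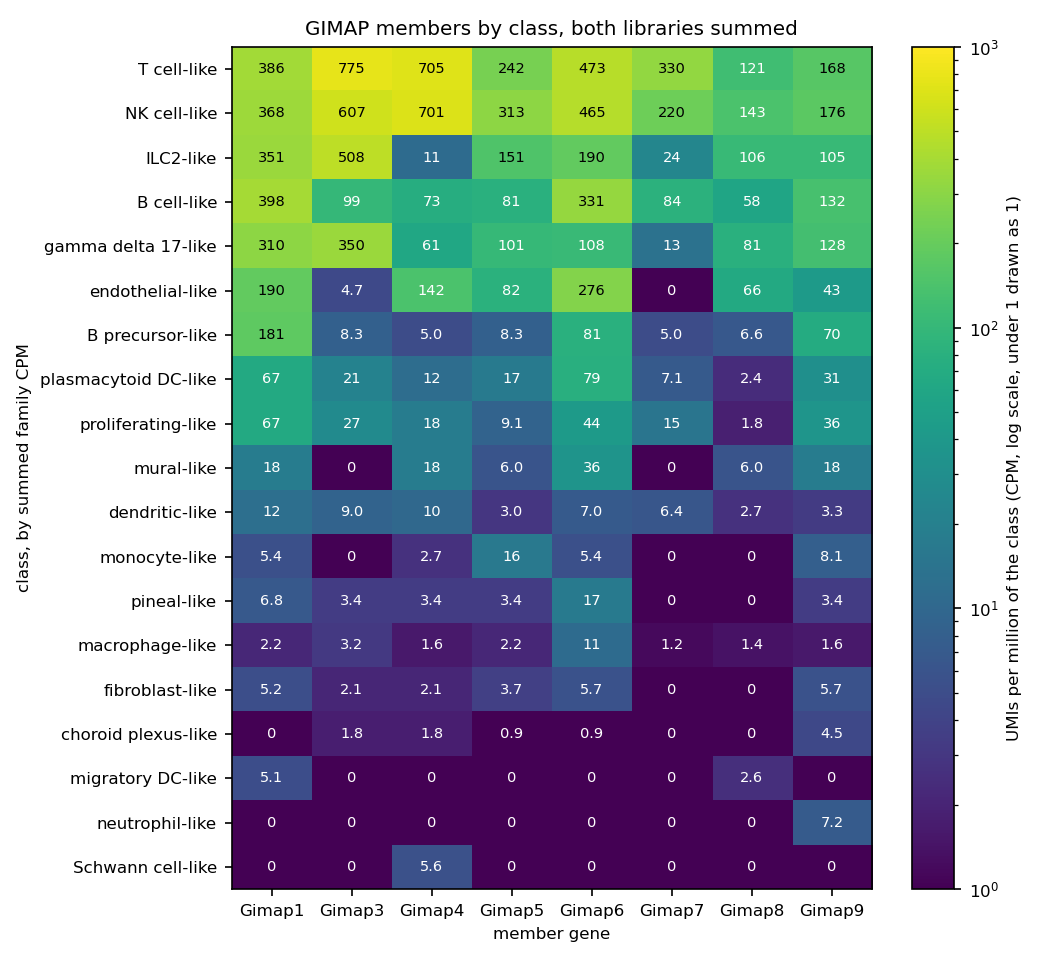
Heat map of the level of each GIMAP gene (columns) in each class (rows), as CPM of the class with both libraries summed, on a log color scale. The T-like and NK-like rows are high for all 8 members, and the endothelial-like row is high for Gimap6 and Gimap1 and without UMIs for Gimap7.

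The summed family level was highest in T-like cells, at 3091 CPM in Sham and 3269 in TBI, followed by NK-like cells at 3208 and 2744. With both libraries summed the T-like level exceeded the NK-like level by 1.07-fold (interval 1.01 to 1.13), and the order was opposite in the Sham library, so these neighbors could not be separated. ILC2-like cells had 1374 and 1504 CPM, B-like cells 1273 and 1234, and IL-17-type γδ T-like cells 1007 and 1215. The ILC2-like interval (1241 to 1518 CPM) and the B-like interval (1208 to 1341 CPM) overlapped in Sham. The γδ level rested on 45 UMIs in Sham and its interval (734.2 to 1347 CPM) covered the B-like level. Endothelial-like cells followed at 737.0 and 834.2 CPM, and B precursor-like cells at 370.6 and 359.5. The T-like level was 2.21-fold the ILC2-like level (2.06 to 2.38), 2.55-fold the B-like level (2.42 to 2.68) and 3.98-fold the endothelial-like level (3.76 to 4.22). Below these came plasmacytoid dendritic-like cells (235.8 CPM) and proliferating cells (218.1), then mural-like cells (102.1, from 17 UMIs). Macrophage-like cells, the most numerous class, had 24.6 CPM (20.4 to 29.3).

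In T-like cells all 8 members were measured with at least 63 UMIs in each library. Gimap5 had 240.3 CPM in Sham and 243.0 in TBI, and its relative Gimap3 had 829.3 and 740.6. Gimap1 had 350.4 and 408.5, Gimap4 had 644.0 and 744.1, and Gimap6 had 423.8 and 504.6. Gimap7 had 306.4 and 344.9, Gimap8 had 115.6 and 125.0, and Gimap9 had 181.6 and 158.5. For each gene the 2 libraries lay within 1.5-fold of each other. CPM values from 3′ UMIs were not divided by gene length, so each gene was compared across cells and not with the other genes.

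When all lymphoid cells were clustered anew, 2 T cell clusters differed in level. The CD8 T-like cluster (226 cells) had a family level of 3678 CPM and was led by interferon-response Ifit genes as well, while a T cluster led by Ctla4, an inhibitory receptor of activated and regulatory T cells, had 2318 CPM over 158 cells. The Ctla4-led cluster held B cell transcripts too, with Cd79a at 143.5 CPM, and had Cd8b1 (255.8 CPM) above Cd4 (166.3 CPM). It was left without a subset name. Gimap7 was 2.78-fold higher in the CD8 T-like cluster (2.18 to 3.63) and Gimap4 1.99-fold higher (1.71 to 2.34). Gimap8 did not follow them, at 0.852-fold (0.622 to 1.18).

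NK-like cells had T-like levels of most members. Gimap4 was at 741.1 CPM in the Sham and 655.1 in the TBI library, and the T-like to NK-like ratio over both libraries was 1.01 (0.901 to 1.12). Gimap5 was at 340.2 and 281.7 CPM and Gimap1 at 370.6 and 363.9. Gimap7 was the member with the widest gap between libraries in these cells, at 290.4 CPM in Sham and 139.2 in TBI.

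ILC2-like cells, the tissue-resident innate lymphocytes that make type 2 cytokines, had a partial set. Gimap1 was at 345.4 CPM in Sham and 355.2 in TBI, close to its T-like level, with a T-like to ILC2-like ratio of 1.10 (0.939 to 1.29). Gimap3 was at 413.0 and 584.3 CPM, and Gimap8 at 149.5 and 71.6. Gimap4 was nearly missing, with 2 UMIs in Sham and 5 in TBI. Its T-like level was 59.3-fold higher (30.7 to 158), and its NK-like level 58.9-fold higher (30.4 to 158). Gimap7 had 8 and 7 UMIs, and its T-like level was 13.4-fold higher (8.32 to 25). With both libraries summed, Gimap6 was at 190.5 CPM, Gimap5 at 150.8 and Gimap9 at 104.8, against T-like levels of 473.3, 242.0 and 167.5. In the IL-17-type γδ T-like class, with 13 Sham and 32 TBI cells, Gimap4 and Gimap7 were again furthest below their T-like levels. Gimap4 had 9 UMIs and a T-like level 11.0-fold higher (6.10 to 25.5), and Gimap7 had 2 UMIs and a T-like level 19.6-fold higher (6.74 to 203). Other members were lower too, with Gimap6 at 107.8 CPM, Gimap5 at 101.1, Gimap3 at 350.4 and Gimap8 at 80.9. Their T-like levels were 473.3, 242.0, 774.9 and 121.3 CPM. With both libraries summed, Gimap1 (310.0 CPM) and Gimap9 (128.0 CPM) in the γδ class were within 1.5-fold of their T-like levels of 386.0 and 167.5 CPM. In Sham alone they had 9 and 2 UMIs, at 201.3 and 44.7 CPM against T-like levels of 350.4 and 181.6.

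**Figure D2:**
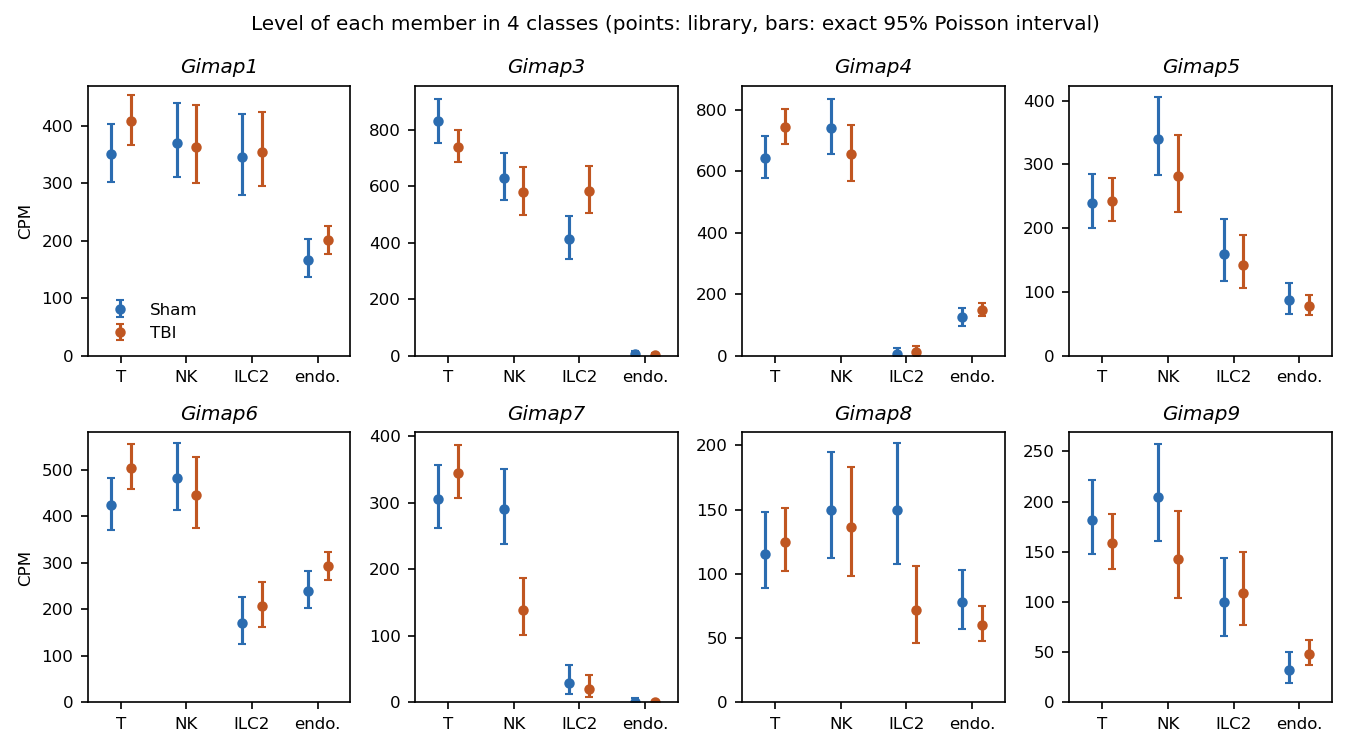
Level of each GIMAP gene (1 panel per gene, CPM of the class) in T-like, NK-like, ILC2-like and endothelial-like cells, with Sham and TBI as separate points and bars for exact Poisson 95% intervals. Gimap4 and Gimap7 drop near 0 in ILC2-like cells, and Gimap3 and Gimap7 do so in endothelial-like cells.

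The B lineage was clustered anew, again without the GIMAP genes. It gave 2 precursor-like clusters, of 164 cells (with Rag1 and Rag2) and 18 cells (with Dntt, Vpreb1 and Igll1). They were summed and are called the precursor-like cluster below (182 cells). There was also an unnamed cluster led by Wfdc21 (403 cells) and a mature B-like cluster (219 cells). The mature B-like cluster carried the mature markers Ighd (591.4 CPM) and Fcer2a (502.2 CPM). The Wfdc21-led cluster had 0 markers of a stage list among its genes of highest fold. It had Ms4a1 at 3256 CPM, Vpreb3 at 2363 CPM and Ighd at 134.0 CPM. The precursor-like and mature B-like clusters are stages by their markers and not by lineage tracing, and the Wfdc21-led cluster was given no stage. A further unnamed cluster (59 cells, led by Gm26917, median of 772 UMIs per cell) had no stage by its markers. Gimap4 and Gimap3 were themselves among the 10 genes of highest fold in the mature B-like cluster. The family level was 369.6 CPM in Sham and 373.5 in TBI in the precursor-like cluster. It was 819.0 and 812.3 CPM in the Wfdc21-led cluster, and 2036 and 1990 CPM in the mature B-like cluster. The order of the clusters was the same in both libraries, and mature B-like cells were 5.42-fold above precursor-like cells (4.67 to 6.33).

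The members differed in which of these clusters they were high. Gimap4 had 5.60 CPM in precursor-like cells, 7.80 in the Wfdc21-led cluster and 195.1 in mature B-like cells, a 23.9-fold difference between the last 2 (13.2 to 53.4). Gimap3 had 9.34, 13.3 and 254.1 CPM, an 18.7-fold difference (11.6 to 33.7). For both, the ratio of the Wfdc21-led to the precursor-like cluster could not be told from 1, at 1.25 (0.358 to 7.87) for Gimap4 and 1.33 (0.503 to 4.92) for Gimap3. Within these 3 clusters, 129 of the Gimap4 UMIs were in mature B-like cells, against 10 in the Wfdc21-led and 3 in the precursor-like cluster, and for Gimap3 the numbers were 168, 17 and 5.

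Other members were higher in the Wfdc21-led than in the precursor-like cluster. Gimap5 had 9.34, 58.5 and 119.5 CPM in precursor-like, Wfdc21-led and mature B-like cells, and Gimap8 had 5.60, 39.8 and 71.1. The Wfdc21-led to precursor-like ratios were 5.73 for Gimap5 and 6.14 for Gimap8. Gimap7 had 5.60, 28.1 and 183.0 CPM. Its ratio was 4.35 for Wfdc21-led over precursor-like and 6.46 for mature B-like over Wfdc21-led cells. Gimap6 had 84.1, 195.6 and 573.3 CPM, and Gimap1 had 184.9, 331.3 and 502.2, so that the mature B-like level was 6.75-fold (5.00 to 9.51) and 2.71-fold (2.16 to 3.43) the precursor-like level. Gimap1 and Gimap6 were the members with clear signal in precursor-like cells, together with Gimap9 at 67.2 CPM. Among the precursor-like, Wfdc21-led and mature B-like clusters, Gimap9 alone did not peak in the mature one with both libraries summed. It had 141.9 CPM in the Wfdc21-led cluster and 119.5 in the mature B-like cluster, a ratio of 0.845 (0.638 to 1.10). The libraries differed, with 161.6 and 118.9 CPM in Sham but 116.3 and 120.4 in TBI. In the shallow unnamed cluster of 59 cells, Gimap8 had 220.8 CPM (126.2 to 358.5) from 16 UMIs, above its mature B-like level.

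**Figure D3:**
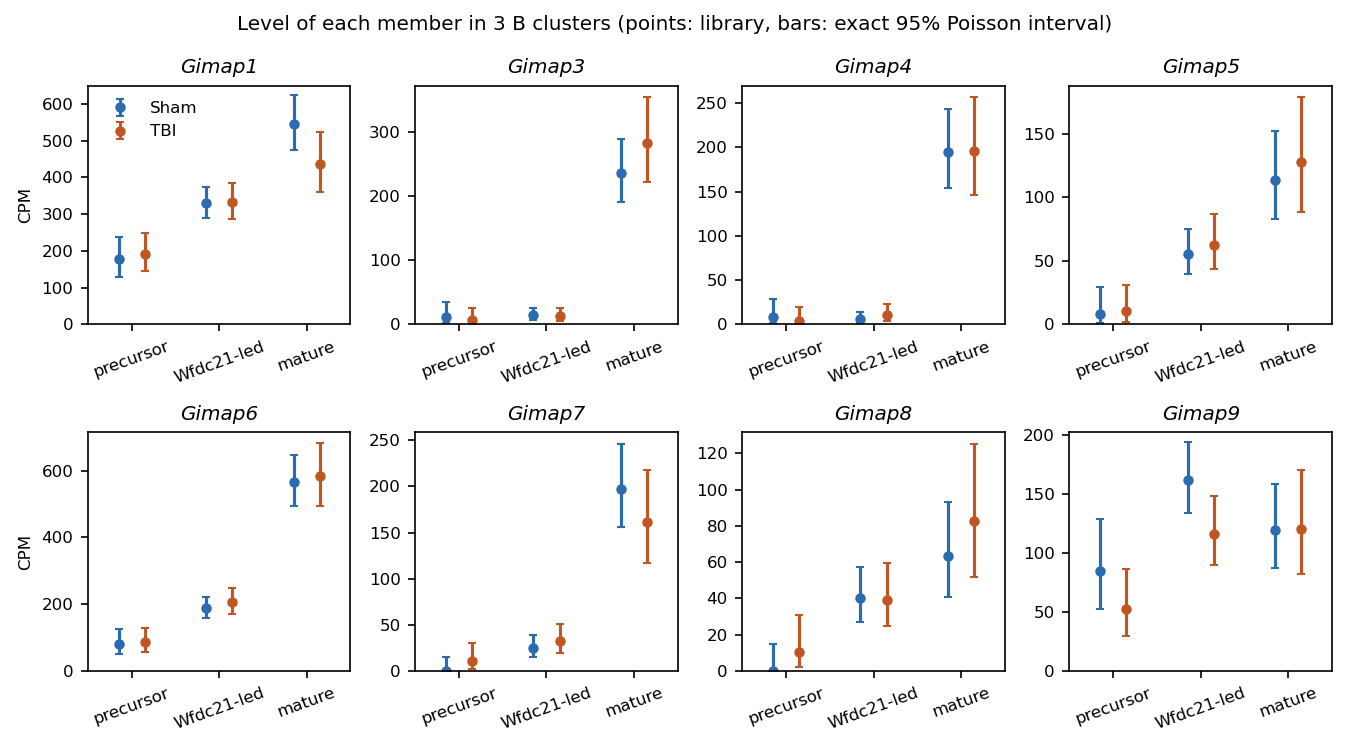
Level of each GIMAP gene (1 panel per gene, CPM of the cluster) in precursor-like, Wfdc21-led and mature B-like cells, with Sham and TBI as separate points and exact Poisson 95% intervals as bars. Of the 3 clusters, Gimap3 and Gimap4 are well above 0 only in the mature B-like one, Gimap1 and Gimap6 are present in all 3, and Gimap9 is level between the last 2.

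Endothelial-like cells (308 in Sham, 579 in TBI) had 6 of the 8 members at a clear level. Gimap6 was at 240.2 CPM in Sham and 292.0 in TBI, which with both libraries summed was 58.2% of its T-like level. Gimap1 was at 167.2 and 201.0 CPM (49.3%), and Gimap8 at 77.9 and 59.9 CPM (54.1%). Gimap5 was at 87.7 and 78.9 CPM (33.8%), Gimap9 at 32.5 and 48.5 CPM (25.9%), and Gimap4 at 125.0 and 150.1 CPM (20.2%). Gimap3 had 4 and 5 UMIs, and its T-like level was 158-fold higher (87.4 to 365). Gimap7 had 0 UMIs in 887 cells, with an upper limit of 1.907 CPM over both libraries, and its T-like level was at least 172-fold higher.

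The markers of T cells were nearly missing from the same cells. The 11 T cell markers summed to 16.5 CPM in endothelial-like cells against 5668 CPM in T-like cells. Cd3e and Cd3d, subunits of the T cell receptor complex, had 2 UMIs each, 0.0785% and 0.0966% of their T-like levels, and Ptprc, which encodes the leukocyte antigen CD45, had 1.98%. The 11 NK cell markers summed to 3.62 CPM, with 7 of them at 0. The 10 B cell markers summed to 471.9 CPM, all 10 with UMIs, and Cd79a stood at 47.6 CPM, most of it in an unnamed endothelial cluster led by Maf. Ebf1, 1 of these 10, was not among the 9 markers that named the B-like class. The 14 macrophage markers summed to 414.5 CPM and the 14 endothelial markers to 20870 CPM. Mixture of B cell RNA and its part in the endothelial GIMAP values was not tested, beyond the values by cluster that follow.

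Among endothelial clusters the family level was highest in the capillary-like one, at 964.6 CPM in Sham and 1181 in TBI over 182 cells, which was 1.50-fold the venous-like level (1.31 to 1.72) with both libraries summed. Genes of the interferon response led the capillary-like cluster (Ifit3, Ifit2, Igtp, Ifi44, Ifit1, Rsad2, Ifi208, Tgtp2 and Tgtp1), followed by the capillary marker Gpihbp1. Vessel type and interferon response cannot be told apart in its levels. Venous-like cells had 588.9 and 788.0 CPM. Arterial-like cells had 562.1 CPM and barrier-like cells 588.9 CPM with both libraries summed, over 115 and 59 cells. The unnamed Maf-led and Penk-led clusters had 726.6 and 759.7 CPM. Gimap4 varied between these clusters, at 220.9 CPM in capillary-like, 154.3 in venous-like, 88.8 in arterial-like and 19.6 in barrier-like cells (3 UMIs). The capillary-like level of Gimap4 was 2.43-fold the arterial-like level (1.50 to 4.36) and 9.69-fold the barrier-like level (3.75 to 55.4). Gimap6 showed the same order with 419.1, 237.9, 197.2 and 150.5 CPM, and Gimap1 did not, with 225.1, 162.9, 172.6 and 242.1 CPM. Gimap7 had 0 UMIs in every endothelial cluster.

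Counted by cell, after thinning each cell to 1000 UMIs and leaving out shallower cells, any GIMAP UMI was found in 89.8% of T-like, 93.1% of NK-like, 74.4% of ILC2-like, 70.7% of IL-17-type γδ T-like, 67.2% of B-like, 50.8% of endothelial-like (47.0 to 54.5) and 24.6% of B precursor-like cells. Thinning left out 61 of 384 T-like cells (35 in Sham, 26 in TBI) and 168 of 887 endothelial-like cells (69 in Sham, 99 in TBI). By library the thinned shares were 89.2% in Sham and 90.2% in TBI for T-like cells, 67.6% and 79.2% for ILC2-like cells, and 52.3% and 50% for endothelial-like cells. Without thinning these shares were 96.1%, 97.3%, 89.6%, 95.6%, 86.0%, 67.0% and 51.9%. Macrophage-like and fibroblast-like cells, taken as classes that should lack these genes, had thinned shares of 2.59% and 2.82% and unthinned shares of 5.02% and 5.47%. Their median depths of 4126 and 3100 UMIs were above the 1914 of endothelial-like cells and near or above the 3228 of T-like cells. In macrophage-like cells Gimap6 made up 46.0% of the GIMAP UMIs (57 UMIs). Its share was 14.8% in T-like, 26.3% in B-like and 34.3% in endothelial-like cells. The part of free RNA in the endothelial share was not tested. Gimap4 alone was found in 48.3% of T-like, 48.6% of NK-like and 11.1% of endothelial-like cells after thinning, in 1.16% of ILC2-like cells (2 of 172) and in 0.226% of macrophage-like cells. Unthinned, the Gimap4 shares were 72.1%, 81.3%, 22.2%, 3.18% and 0.663%. Gimap7 was found in 29.1% of T-like and 18.9% of NK-like cells after thinning and in 52.3% and 38.0% unthinned, and in 0 of 887 endothelial-like cells unthinned.

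**Figure D4:**
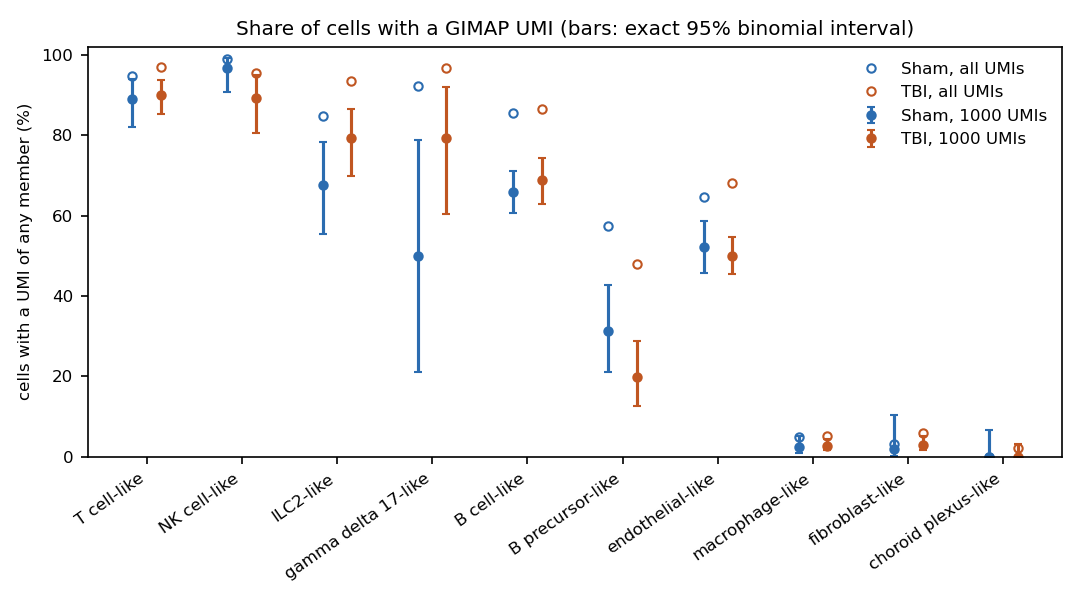
Percent of cells with at least 1 GIMAP UMI in each class, after thinning every cell to 1000 UMIs (filled points) and with all UMIs (open points), with exact binomial 95% intervals as bars. T-like and NK-like cells are near the top, endothelial-like cells at 50.8% thinned, and macrophage-like and fibroblast-like cells under 3% thinned.

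Several members were often found in 1 cell. At 1000 UMIs per cell, T-like cells had UMIs of 2.50 different members on average and 48.0% had 3 or more, and NK-like cells had 2.38 and 42.9%. The CD8 T-like cluster reached 2.72 members per cell, with 54.8% at 3 or more. B-like cells had 1.14, with 1.77 in the mature B-like and 0.741 in the Wfdc21-led cluster, and B precursor-like cells had 0.295. Endothelial-like cells had 0.683 members per cell, with 2.92% at 3 or more, against 0.0304 in both macrophage-like and fibroblast-like cells.

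The injury comparison asked whether family levels in a class differed between the libraries. Members with at least 50 UMIs in a class were compared, and a ratio of 1.5-fold or more in CPM counted as past the fold. In T-like cells 0 of 8 members were past it, where 4.95% of 4004 genes were past it upward and 5.04% downward. Of the 8 members 6 had ratios above 0. The median log2 ratio of the members was 0.14 and that of all genes 0.00. The family log2 ratio of TBI to Sham was 0.08 (−0.01 to 0.17). The mix of T cell clusters differed between the libraries. The CD8 T-like cluster had 77 Sham and 149 TBI cells, and the Ctla4-led cluster 85 and 73. Mix and level cannot be told apart in the T-like ratios. In B-like cells 0 of 8 were past it (4.24% upward and 4.53% downward over all genes), and the family ratio was −0.04. In the mature B-like and Wfdc21-led clusters it was 0 of 7 (5.21% and 5.15%) and 0 of 5 (4.29% and 4.92%). In endothelial-like cells 0 of 6 were past it (5.65% and 4.10%), with a family ratio of 0.18 (0.02 to 0.34). Counts of 0 among so few members lie near what these background shares give. Gimap9 in endothelial-like cells lay close to the fold, at a log2 ratio of 0.56 (−0.16 to 1.38). The B cell marker Cd79a in the same cells had 7 UMIs in Sham (11.4 CPM) and 85 in TBI (64.5 CPM). The part of B cell RNA in the endothelial ratios was not tested.

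In NK-like cells 1 of 8 members was past the fold, downward, where 5.43% of genes were past it downward and 3.65% upward. It was Gimap7, with 105 UMIs in Sham and 44 in TBI, a log2 ratio of −1.05 (−1.60 to −0.54). All 8 members had ratios below 0 there, with a median of −0.15 against −0.02 for all genes, and the family ratio was −0.23 (−0.35 to −0.10). Over 9 processing settings, Gimap1, Gimap5, Gimap6 and Gimap8 in NK-like cells were above 0 in some. Gimap6 ran from −0.231 to 0.222. When lymphoid cells were clustered anew, the lower Gimap7 value was seen in both clusters that carried Ncr1, an NK cell receptor. Both clusters were drawn from the same lymphoid cells and libraries, so they give no second observation of it. In the NK-like cluster Gimap7 had 239.8 CPM in Sham and 119.2 in TBI, with 1 of 8 members past the fold downward (4.73% of genes, and 4.99% upward), and in an unnamed cluster led by Gzmc it had 397.1 and 197.0 CPM, with 1 of 6 (5.68%, and 6.61% upward). The lower values were not shared by all members: 2 of 8 had ratios above 0 in the NK-like cluster (median −0.059). In the Gzmc-led cluster it was 1 of 6 (median −0.125). The share of NK-like cells with Gimap7 was 41.8% in Sham and 33.7% in TBI, and 24.2% and 13.1% after thinning. In NK-like cells the NK marker sum was 14920 CPM in Sham and 12090 in TBI, the T marker sum 920.9 and 620.3 (Cd5 and Cd6 at 0 in TBI), and the fibroblast marker sum 19.4 and 262.7. The part of these sums in the Gimap7 difference was not tested.

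In ILC2-like cells 1 of 6 members was past the fold, downward, where 4.74% of genes were past it downward and 4.32% upward. It was Gimap8, with 42 UMIs in Sham and 25 in TBI, a log2 ratio of −1.05 (−1.84 to −0.32). Gimap3 lay in the other direction within the fold, at 0.50 (0.17 to 0.84). The erythroid marker sum in these cells was 1766 CPM in Sham and 435.4 in TBI and the fibroblast sum 149.5 and 289.3, and their part in the result was not tested. With few UMIs, the IL-17-type γδ T-like and B precursor-like classes had 1 member each to compare, and 0 of 1 was past the fold in either (3.58% upward and 5.12% downward over all genes in the former, 5.83% and 4.65% in the latter).

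Finer clusters gave a few more values past the fold. In the Ctla4-led T cluster 3 of 8 members were past it downward, where 11.4% of genes were and 7.31% were past it upward. They were Gimap3 at −0.69 (−1.04 to −0.35), Gimap7 at −0.62 (−1.34 to 0.07) and Gimap8 at −0.85 (−1.63 to −0.11). The family log2 ratio there was −0.41 (−0.59 to −0.24), while in the CD8 T-like cluster 0 of 8 members were past the fold (7.41% upward and 3.22% downward over all genes) and the family ratio was 0.09. The median depth of the Ctla4-led cells was 1128 UMIs in Sham and 1948 in TBI. In capillary-like cells 1 of 4 members was past the fold upward (6.28% of genes, and 4.32% downward), Gimap6, at 300.2 CPM in Sham and 475.9 in TBI (log2 ratio 0.65, 0.19 to 1.17). In venous-like cells 1 of 3 was past it upward (17.2% of genes, and 6.49% downward), Gimap1, from 9 UMIs in Sham and 67 in TBI (1.11, 0.17 to 2.37).

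**Figure D5:**
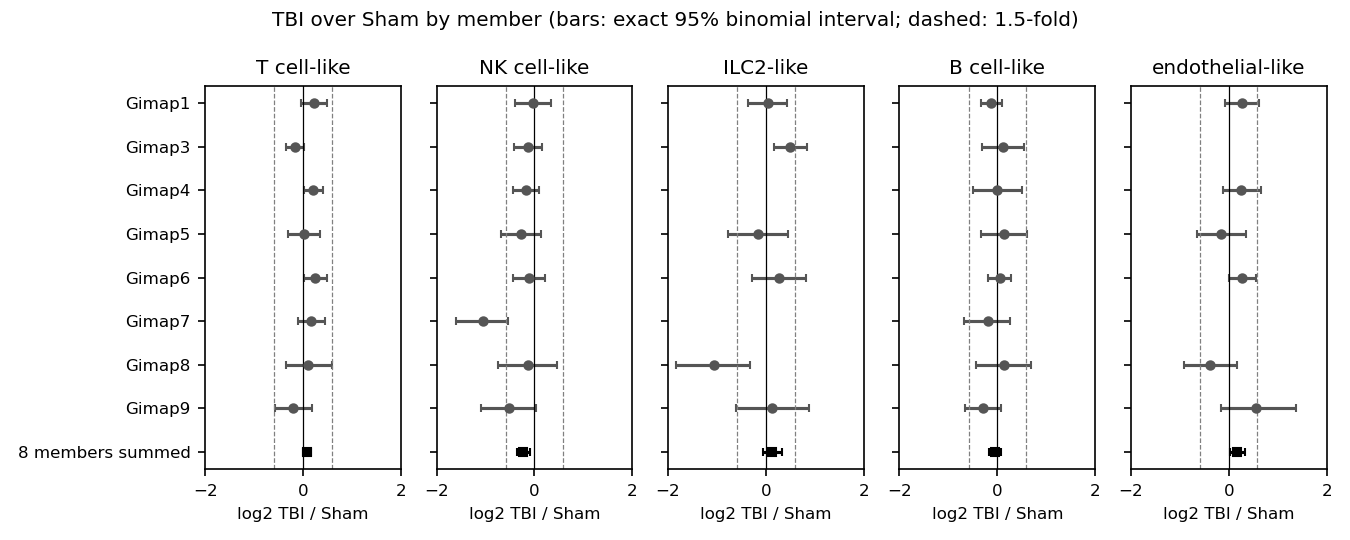
Log2 ratio of TBI to Sham CPM for each GIMAP gene with at least 50 UMIs in T-like, NK-like, ILC2-like, B-like and endothelial-like cells (circles) and for the 8 members summed (squares), with exact binomial 95% intervals as bars and dashed lines at 1.5-fold. Gimap7 in NK-like cells and Gimap8 in ILC2-like cells lie below the lower line, and all other points lie between the lines.

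Genes with which the GIMAP family is often discussed were read the same way: 14 genes of the BCL2 family, which set the threshold for apoptosis, 12 of common gamma chain cytokine signaling, which keeps resting lymphocytes alive, and 11 of lymphocyte recirculation. The shares of all genes past 1.5-fold upward and downward in each class are given in parentheses after its name. In T-like cells (4.95% and 5.04%) 0 of 8 tested BCL2 family genes were past 1.5-fold. For common gamma chain genes it was 1 upward of 8, the interleukin-4 receptor chain Il4ra, and 1 downward, the interleukin-7 receptor chain Il7r, at 405.5 CPM in Sham and 224.5 in TBI (log2 ratio −0.85, −1.14 to −0.57). For recirculation genes it was 1 of 10, downward, the lymph node homing receptor Ccr7, at 58.7 and 34.7 CPM, with an interval that reached 0 (−1.53 to 0.01). Of these 10 genes 0 had a ratio above 0, with a median log2 ratio of −0.269 against 0.004 for all genes.

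In NK-like cells (3.65% of all genes upward and 5.43% downward) it was 1 of 3 BCL2 family genes upward (Bcl2a1b, 63.6 and 117.1 CPM). It was 0 of 4 common gamma chain genes, and 1 upward and 1 downward of 5 recirculation genes. These were Satb1, a chromatin organizer of T cells, at 66.4 and 129.8 CPM, and Klf2, a transcription factor of quiescent and recirculating lymphocytes, at 840.7 CPM in Sham and 496.9 in TBI (−0.76, −1.05 to −0.48). In ILC2-like cells (4.32% and 4.74%) it was 1 of 6 common gamma chain genes upward (Cish, a cytokine-induced inhibitor, 238.5 and 380.9 CPM). It was 0 of 2 in each of the other lists. In the IL-17-type γδ T-like class (3.58% and 5.12%) it was 1 of 4 common gamma chain genes upward (Socs1) and 0 of 1 in the other lists.

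In B-like cells (4.24% of all genes upward and 4.53% downward) it was 1 of 7 BCL2 family genes upward (Bcl2a1b, 27.4 and 51.3 CPM). It was also 1 of 9 recirculation genes upward (Itgb7, 54.0 and 83.1 CPM) and 0 of 3 common gamma chain genes. In B precursor-like cells (5.83% and 4.65%) it was 1 of 3 BCL2 family genes upward, the apoptosis effector Bax at 139.4 and 229.6 CPM. It was 1 of 6 recirculation genes downward, Foxo1 at 275.2 and 172.2 CPM, and 0 of 5 common gamma chain genes. In endothelial-like cells (5.65% and 4.10%) it was 1 of 7 BCL2 family genes downward, the survival gene Bcl2 at 40.6 and 21.2 CPM. It was 0 of 7 and 0 of 4 in the other lists. In T-like, NK-like, ILC2-like, B-like and endothelial-like cells, each list held at most 1 gene past the fold in either direction. Recirculation genes in B-like cells had ratios above 0 in 2 of 9 cases, with a median of −0.193 against 0.01 for all genes. It was 2 of 5 in NK-like, 2 of 2 in ILC2-like, 3 of 6 in B precursor-like and 1 of 4 in endothelial-like cells. In the IL-17-type γδ T-like class it was 0 of 1.

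Over the 17 named classes with at least 50 cells, libraries summed, the members resembled each other in pairs, as a description across classes that share the same cells and libraries. Pearson's r of log2(CPM + 10) was 0.98 for Gimap1 with Gimap9, 0.97 for Gimap1 with Gimap6, 0.97 for Gimap5 with Gimap8 and 0.92 for Gimap3 with Gimap7, and lowest, at 0.75, for Gimap1 with Gimap4. Among 9527 genes, those most like the summed family were Taf5l (0.91), Ets1 (0.90), Pced1b (0.89), Ppp1r16b (0.89), Rapgef6 (0.89), Pde7a (0.89), S1pr4 (0.88) and Il27ra (0.88). Ets1 encodes a transcription factor of lymphocytes and endothelium, and S1pr4 a receptor for sphingosine 1-phosphate on lymphocytes. For single members the gene most alike was Ppp1r16b for Gimap1 (0.92), Sh2d2a for Gimap3 (0.96), Il27ra for Gimap5 (0.93) and Gimap8 (0.93), Ets1 for Gimap6 (0.92), and Lck, the proximal kinase of the T cell receptor, for Gimap7 (0.91).

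Genes on either side of the family on chromosome 6 had levels of their own. Tmem176b had 93.7 CPM in T-like cells, 579.4 in ILC2-like, 518.4 in endothelial-like, 811.6 in fibroblast-like and 2034 in macrophage-like cells, and Tmem176a 58.9 in T-like and 1009 in macrophage-like cells. Zfp775 had 9.23 CPM in T-like and 5.17 in endothelial-like cells. AI854703, the nearest neighbor before the family, had few UMIs and most of them in lymphoid cells, with 10 in ILC2-like (15.9 CPM), 5 in T-like (3.55 CPM) and 3 in NK-like cells, and 1 each in B-like, endothelial-like, macrophage-like and fibroblast-like cells.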

How the data were processed

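The deposited files were filtered UMI count matrices, 1 per library. Per the labels and the study's methods, the authors aligned reads to mm10 with Cell Ranger. The methods name version 1.3.1, the submitters' processing notes 2.1.1 and the matrix header 3.1.0. The counts were not normalized. No source used here names the annotation release. Barcodes with 150 to 5000 genes, at most 20% mitochondrial and at most 5% hemoglobin UMIs were kept (2043 of 2699 in Sham, 3773 of 4349 in TBI, with 7866611 and 13940740 UMIs). Both libraries were clustered together with scanpy 1.11.5 on 2000 variable genes without the GIMAP genes (20 components, 20 neighbors, Leiden resolution 0.8). Naming a cluster required that its 50 genes of highest fold include 3 or more markers of the class. Clusters that reached no class list were then tried on the endothelial subtype lists. This added clusters of 193, 141 and 54 cells (venous, arterial and barrier markers) to the endothelial-like class. Lymphoid, B and endothelial classes were clustered anew by the same steps. Simulated doublets marked 33 Sham cells (1.62%) and 114 TBI cells (3.02%), which were kept in. UMIs were summed per class and library and given as CPM. Ratios used sums plus 0.5, and with 1 library per group no test was made. Named genes were all members, at most 4 genes of each pathway list with the most UMIs in a class, the nearest neighbors on the chromosome and the genes most alike across classes. List genes past the fold outside those 4 were named after their values were seen. Promoters came from RefSeq tables of GRCm38.p6. The calculations were checked on simulated data. The members and lists were chosen with earlier results of these data known.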

Additional observations from a re-analysis of the deposited data

Results flagged for a closer look

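Signal outside the 8 members was found in Gimap1os, the antisense gene opposite Gimap1, which has a row of its own in the matrices. It had 58 UMIs in T-like cells (27 in Sham, 49.5 CPM, and 31 in TBI, 35.9 CPM), 25 in NK-like, 14 in ILC2-like and 17 in B-like cells, against 3 in endothelial-like, 1 in macrophage-like and 0 in fibroblast-like cells. Gimap1 itself was found in endothelial-like cells with 368 UMIs.

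Barcodes removed by the filters also held GIMAP UMIs. The 656 removed Sham barcodes held 75, which is 45.2 CPM (35.5 to 56.6), and the 576 removed TBI barcodes held 94, which is 87.8 CPM (71.0 to 107.5). Most of these came from barcodes over the hemoglobin limit alone, with 56 UMIs in 289 Sham barcodes and 77 in 174 TBI barcodes.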

How the results depend on the processing

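With 1 library per group, no alternative could replace the missing replicates, and leaving out a replicate was not possible. No paired analysis was possible because each group is 1 library. By the criteria used, no class level, family ratio, count of members past the fold or share of cells was reversed. Unchanged were 36 of 48 class levels, 54 of 55 family ratios and 65 of 76 counts of members past the fold. All 14 shares of cells moved. Ratios of single members were outside this tally, and some changed sign. Examples over 9 settings were Gimap8 in T-like cells (−0.454 to 0.455) and Gimap5 in ILC2-like cells (−0.193 to 0.179). Others kept their sign. In T-like cells Gimap1 (0.183 to 0.501) and Gimap4 (0.146 to 0.48) stayed above 0. So did Gimap6 (0.204 to 0.357) and Gimap7 (0.024 to 0.283), while Gimap3 stayed below 0 (−0.188 to −0.046). The T-like family level was 3000 CPM at a Leiden resolution of 0.5, 3315 without doublets, 3567 as a mean over cells and 3097 without the hemoglobin limit, and the T-like log2 ratio of TBI to Sham was 0.17 without doublets. The NK-like level was 2783 CPM with the GIMAP genes in the clustering and 3183 as a mean over cells, and in both 2 members were past the fold. The ILC2-like level was 1588 CPM without the hemoglobin limit, and 2 members were past the fold as a mean over cells or with no UMI minimum. The B-like level was 1332 CPM as a mean over cells and 1200 without the hemoglobin limit. The B precursor-like level was 294.7 CPM at resolution 0.5, where 1 member was past the fold, and 4 were with no minimum. In the IL-17-type γδ T-like class 2 members were past the fold with a minimum of 10 UMIs and 3 with none. The endothelial-like level was 737.9 CPM as a mean over cells and 910.1 when the class was taken from its own marker list only, an alternative chosen after seeing the data, and 1 member was past the fold as a mean over cells, without the hemoglobin limit or with no minimum. Shares of all genes past the fold under these alternatives are not given here. The counts of members past it therefore have no background beside them. The log2 ratio of Gimap7 in NK-like cells ran from −1.05 to −0.80 over 9 settings, and that of Gimap8 in ILC2-like cells from −1.32 to −1.01. Shares of cells with a GIMAP UMI followed the depth. Thinned to 500 and to 2000 UMIs they were 73.2% and 96.7% in T-like, 72.2% and 98.7% in NK-like, 46.4% and 90.7% in ILC2-like, 44.4% and 87.9% in IL-17-type γδ T-like, 45.5% and 83.2% in B-like, 13.6% and 47.1% in B precursor-like, and 31.2% and 77.4% in endothelial-like cells.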
